A study of Chelonia mydas with 15 samples.

Results

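Retinoic acid is made, cleared and sensed by a small set of genes, and 10 of them were looked up here in embryos of the green sea turtle, Chelonia mydas. They are the retinaldehyde dehydrogenases ALDH1A1, ALDH1A2 and ALDH1A3, the retinaldehyde reductase DHRS3, the retinoic acid receptors RARA, RARB and RARG, and the degrading enzymes CYP26A1, CYP26B1 and CYP26C1. They were found by gene symbol in the deposited table of counts per gene. Of the 10 genes, 7 were in the table among its 23730 named genes, and all 7 had enough counts to be among the 16639 genes tested. CYP26A1, CYP26B1 and CYP26C1 were not analysed here, so the breakdown arm of the pathway is left out of what follows.

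As background, retinoic acid is made from vitamin A in a pair of oxidation steps. Retinol is first oxidised to retinaldehyde, chiefly by RDH10 in vertebrate embryos, and DHRS3 runs that step backwards. The ALDH1A enzymes then oxidise retinaldehyde to retinoic acid, which binds the RAR receptors. These sit on DNA as pairs with an RXR receptor, recruit corepressors without the ligand and coactivators with it, and in mouse and chick embryos help to pattern the hindbrain, somites, heart and limbs.

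The study asked how oxygen relates to the arrest of turtle embryos before laying. Of 15 whole-embryo RNA libraries, 5 came from hypoxia eggs, held for 36 h below 8 mmHg of oxygen in sealed, nitrogen-filled bags in sand. Another 5 came from normoxia eggs, held for 36 h in sand at about 159 mmHg, and 5 from freshly laid eggs opened within 1 h of laying (0 h). Both incubations ran at 26 to 28 °C. No genetic change, transgene or drug is named for any group, and replicate numbers only name a library. The labels give no female, clutch or pooling, so the p-values measure the spread between these samples, which may in part be technical. In whole embryos, fewer cells of a type and less RNA per cell cannot be told apart.

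Library totals were 17590559 to 20797573 counts in hypoxia, 18257476 to 26805841 in normoxia and 14496102 to 21771745 in freshly laid embryos. Values are CPM, the counts of a gene scaled to a common library total after the TMM method had corrected that total for composition. The TMM factors were 0.785 to 0.904 in the hypoxia libraries, below those of the remaining libraries. If total counts alone set the scale, the median gene shifts by -0.31 on the log2 scale in hypoxia against freshly laid embryos, and by -0.32 in hypoxia against normoxia. Changes in hypoxia are therefore given relative to TMM scaling. As a check of the labelled tissue, 6 of 8 epiblast markers were in the table. Their summed levels were 319 to 966 CPM in hypoxia, 353 to 645 CPM in normoxia and 1565 to 1947 CPM in freshly laid embryos. Most of that sum was DNMT3B, averaging 501 CPM in hypoxia, 368 CPM in normoxia and 1450 CPM in freshly laid embryos. SOX3, PRDM14 and POU5F1 had the same order of means, highest in freshly laid embryos. OTX2 was instead lowest in freshly laid embryos, and the means of SOX2 differed little between groups. Of 5 oviduct markers, 3 were in the table, and their sum reached at most 5.14 CPM in any library.

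The 7 genes lie on 6 sequences of the assembly rCheMyd1.pri, and no other gene of the table overlaps the span of any of them. ALDH1A1 runs from 95332784 to 95382559 on the plus strand of its sequence, with 13 exon blocks. ALDH1A2 (26382368 to 26450205, 14 exon blocks) and ALDH1A3 (8012221 to 8062251, 13 exon blocks) share 1 sequence, both on the minus strand. RARA (13147472 to 13213506, 12 exon blocks) is on a plus strand. RARB (192196175 to 192329407, 9 exon blocks), RARG (5662028 to 5725937, 12 exon blocks) and DHRS3 (12842962 to 12883977, 6 exon blocks) are on minus strands. Counts cover exons only.

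Across the set, the embryos in normoxia had the highest ALDH1A1 and ALDH1A2 and the lowest RARG. In hypoxia ALDH1A2 and RARG did not differ from freshly laid embryos beyond their spread. RARA and DHRS3 were higher than in freshly laid embryos after 36 h in either atmosphere, RARA in normoxia less firmly. By edgeR's quasi-likelihood test with Benjamini-Hochberg adjustment over all tested genes and a threshold of 0.05, 5 of 7 genes changed in normoxia against freshly laid embryos. Of these, 4 were higher and 1 lower, where 31.2% of all tested genes were called, 15.2% higher and 16.1% lower. In hypoxia against freshly laid embryos 2 of 7 changed, both higher, against a background of 40.3% of all genes (20.9% higher and 19.4% lower). In hypoxia against normoxia 4 of 7 changed, 2 higher and 2 lower, against a background of 48.8% (25.7% higher and 23.2% lower). The last count is therefore near the share of all genes called. These comparisons share libraries: both 36 h groups are set against the same 5 freshly laid libraries, and each 36 h group enters a pair of comparisons.

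**Figure D1:**
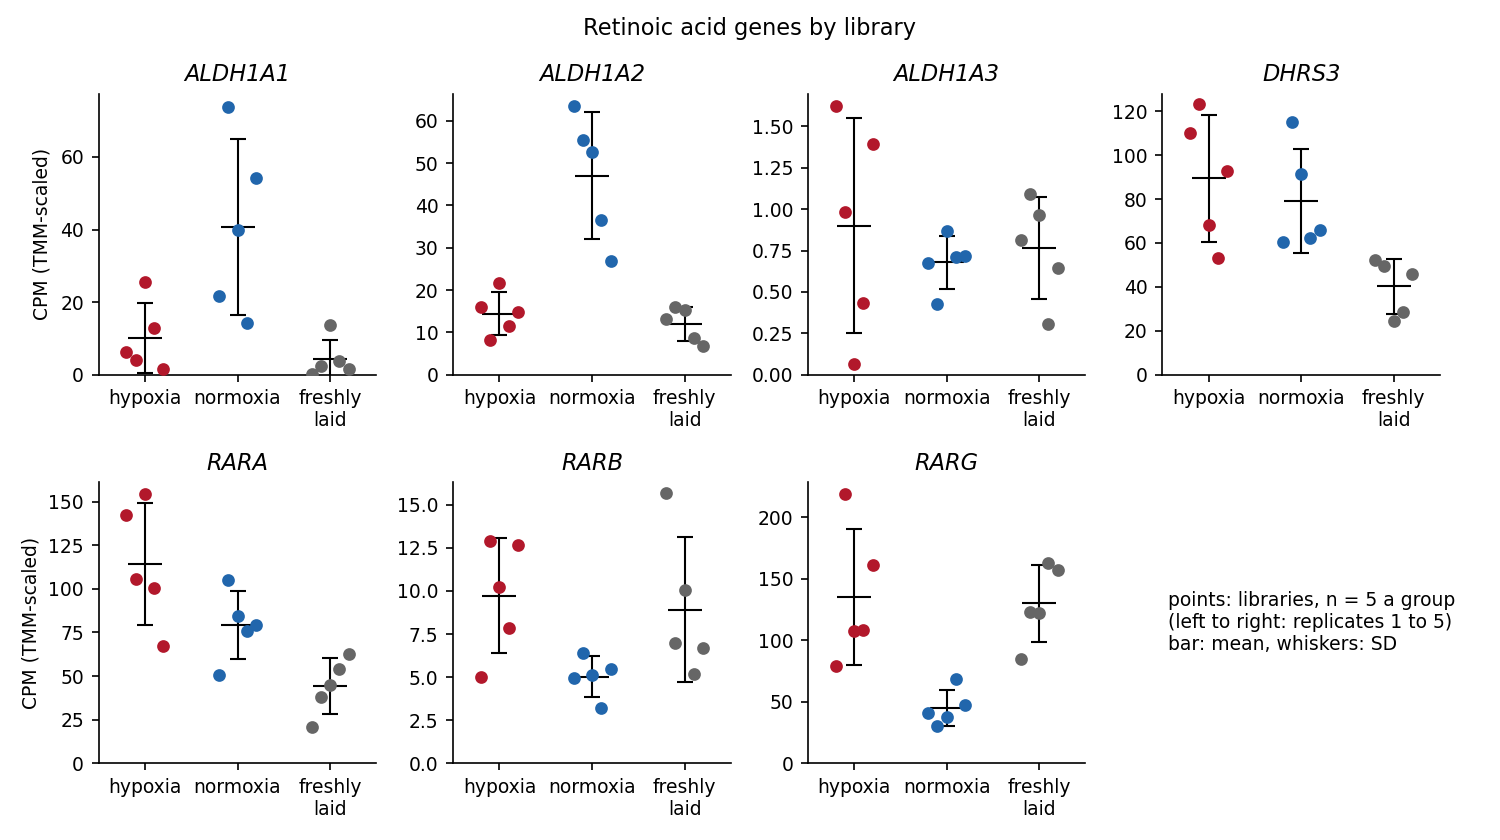
Level of each of the 7 genes in CPM after TMM scaling (vertical axis, linear, its own scale in each panel) in hypoxia, normoxia and freshly laid embryos, with 1 point per library (n = 5 a group), the mean as a bar and the SD as whiskers. ALDH1A2 is above 26 CPM in every normoxia library and below 22 CPM in every other library, while RARG is below 69 CPM in every normoxia library and above 78 CPM elsewhere.

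ALDH1A2, the main source of retinoic acid in early mouse embryos, gave the clearest separation among the synthesis enzymes. Its levels were 16.04, 8.09, 21.6, 11.4 and 14.9 CPM in hypoxia (replicates 1 to 5), 63.6, 55.5, 52.7, 36.6 and 26.7 CPM in normoxia, and 13.2, 15.99, 15.4, 8.69 and 6.79 CPM in freshly laid embryos. All 5 normoxia libraries were above all 10 others, and the hypoxia and freshly laid libraries overlapped. Against freshly laid embryos ALDH1A2 rose 3.92-fold in normoxia (log2 fold change 1.97 ± 0.30 SE, edgeR adjusted p = 0.000184). In hypoxia it was 3.27-fold lower than in normoxia (log2 fold change -1.71 ± 0.30 SE, edgeR adjusted p = 0.000170). Hypoxia against freshly laid embryos gave a log2 fold change of 0.26 ± 0.30 (SE), which did not pass the test (edgeR adjusted p = 0.505). The order of the levels was thus normoxia first, with hypoxia and freshly laid embryos not differing beyond their spread.

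Somite and presomitic mesoderm, among the tissues that express ALDH1A2 in mouse embryos, was followed through 11 of 13 listed paraxial mesoderm markers. Their summed level ran from 52.7 to 183 CPM in hypoxia, from 146 to 243 CPM in normoxia and from 20.1 to 29.1 CPM in freshly laid embryos. Most of that sum was DLL1, a Notch ligand, with 104 CPM in hypoxia, 115 CPM in normoxia and 18.6 CPM in freshly laid embryos. Without DLL1, left out after its values were seen, the other 10 markers summed to 9.15 to 17.5 CPM in hypoxia, 29.8 to 105 CPM in normoxia and 5.12 to 9.46 CPM in freshly laid embryos, so every normoxia library was above every other library, as for ALDH1A2. MSGN1, a factor of presomitic mesoderm, had 1 count over the 5 hypoxia libraries, 2433 over the normoxia libraries and 0 over the freshly laid ones. RIPPLY1, a somite boundary factor, averaged 0.386 CPM in hypoxia, 18.9 CPM in normoxia and 0.442 CPM in freshly laid embryos. FOXC1 had another order, with 7.08 CPM in hypoxia, 4.59 CPM in normoxia and 3.39 CPM in freshly laid embryos. In normoxia 1 library held 140 of the 186 counts of MEOX1, and 1 library held 176 of the 309 counts of TCF15. Of the 10 listed markers tested by edgeR, 7 rose and none fell in normoxia against freshly laid embryos (15.2% of all genes rose). In hypoxia against freshly laid embryos 4 rose and none fell (20.9% of all genes rose). None was higher and 5 were lower in hypoxia than in normoxia (23.2% of all genes were lower there). MSGN1 and UNCX were at 0 in all freshly laid libraries. Lateral and heart mesoderm markers, with 10 of 10 in the table, overlapped between all groups. They summed to 175 to 804 CPM in hypoxia, 236 to 480 CPM in normoxia and 73.1 to 282 CPM in freshly laid embryos. Of the 9 tested by edgeR, 3 were higher and 2 lower in hypoxia than in normoxia (25.7% and 23.2% of all genes). The part of either set of markers in the ALDH1A2 result was not tested.

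ALDH1A1, a retinaldehyde dehydrogenase of the eye, liver and other tissues, varied widely from embryo to embryo. Hypoxia libraries had 6.25, 3.99, 25.5, 12.96 and 1.66 CPM, normoxia libraries 21.6, 73.8, 39.8, 14.2 and 54.3 CPM, and freshly laid libraries 0.314, 2.36, 13.6, 3.78 and 1.51 CPM. The lowest normoxia library lay just above the highest freshly laid one, while hypoxia overlapped both groups. The highest library was 15.4 times the lowest within hypoxia, 5.20 times within normoxia and 43.4 times among freshly laid embryos, where the lowest rests on 5 counts. ALDH1A1 rose 9.45-fold in normoxia against freshly laid embryos (log2 fold change 3.24 ± 0.80 SE, edgeR adjusted p = 0.00589), and by 4.34 on the log2 scale without freshly laid replicate 3.

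The difference between the 36 h groups was less firm for ALDH1A1. In hypoxia it was 4.05-fold lower than in normoxia (log2 fold change -2.02 ± 0.76 SE, edgeR adjusted p = 0.0358). That call was lost when any 1 of 7 libraries was left out (edgeR adjusted p 0.05004 to 0.0919): hypoxia replicates 1, 2, 4 and 5 and normoxia replicates 2, 3 and 5. Without hypoxia replicate 3 the log2 fold change was -2.71. Against freshly laid embryos hypoxia gave a log2 fold change of 1.22 ± 0.76 (SE, edgeR adjusted p = 0.214), which became 2.32 and passed the test without freshly laid replicate 3 (edgeR adjusted p = 0.0203).

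Within groups, the sum of yolk and endoderm markers ran much as ALDH1A1 did. Of 13 listed markers (apolipoproteins, fibrinogen chains and liver-type factors among them) 12 were in the table. Their summed level was 261, 82.9, 572, 166 and 56.6 CPM in hypoxia, 93.9, 746, 349, 52.3 and 386 CPM in normoxia and 15.5, 34.6, 42.2, 21.1 and 15.2 CPM in freshly laid embryos. Most of the hypoxia sum was APOA1, with 185 CPM in hypoxia, 101 CPM in normoxia and 13.8 CPM in freshly laid embryos. APOB had 7.31, 81.6 and 1.29 CPM in the same groups. In normoxia the sum thus rests on APOB as well as on APOA1. By edgeR all 10 tested markers rose in normoxia and 6 in hypoxia against freshly laid embryos (15.2% and 20.9% of all genes rose), and none fell. In hypoxia against normoxia none was higher and 5 were lower (23.2% of all genes were lower). FABP2 was at 0 in all freshly laid libraries. Within normoxia the 5 libraries stood in the same order for ALDH1A1 and for the marker sum, with replicate 2 highest and replicate 4 lowest. Replicate 3 was highest for both in hypoxia and again in freshly laid embryos. The match was not particular to this list. The sum of the 3 oviduct markers, though low, was highest in the same libraries, at 3.03 CPM in hypoxia, 5.14 CPM in normoxia and 2.78 CPM in freshly laid embryos. The lateral and heart markers were also highest in hypoxia replicate 3 (804 CPM), but in the other groups in normoxia replicate 3 and freshly laid replicate 5. Whether yolk tissue in the sample set the ALDH1A1 level was not tested. For ALDH1A2 the normoxia library with the second highest marker sum, replicate 5, was the lowest of its group.

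**Figure D2:**
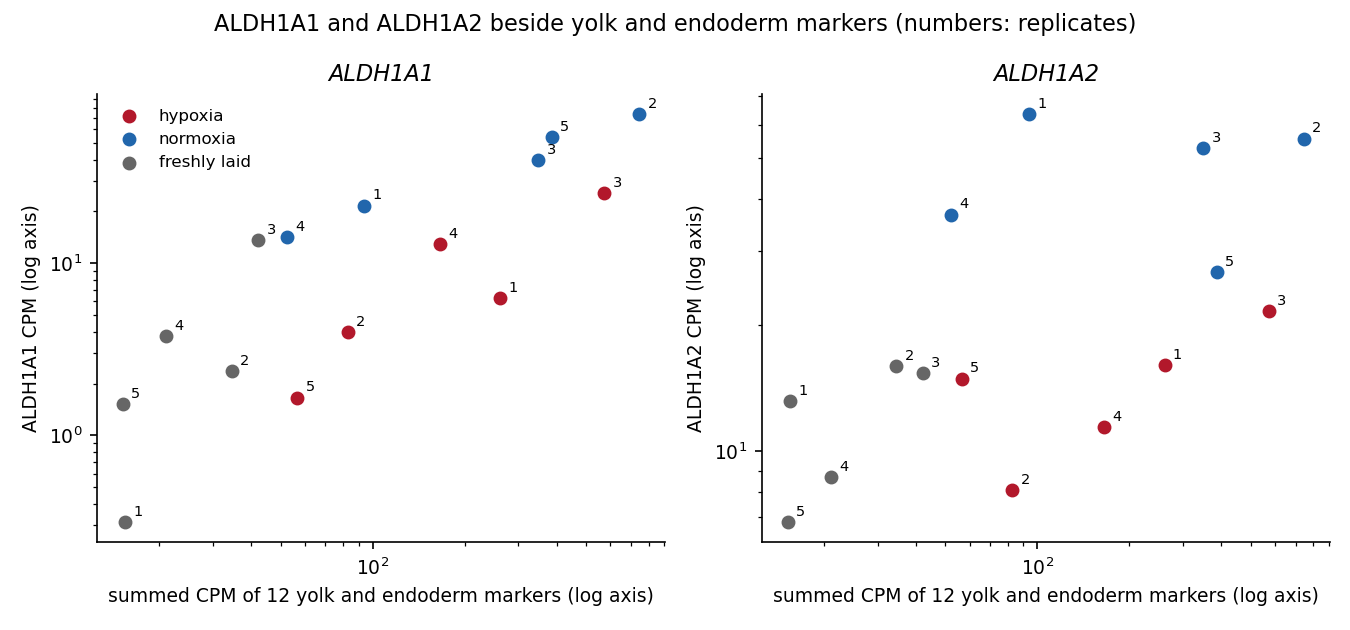
ALDH1A1 (left) and ALDH1A2 (right) in CPM against the summed CPM of 12 yolk and endoderm markers, both axes logarithmic, 1 point per library, with replicate numbers beside the points. The library with the highest marker sum of each group also has the highest ALDH1A1, whereas ALDH1A2 is above 26 CPM in all 5 normoxia libraries although their marker sums span 52.3 to 746 CPM. The sum of the oviduct markers, not plotted, is highest in the same libraries as ALDH1A1.

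ALDH1A3, the third enzyme of the family, was scarce in every group. It was between 0.0631 and 1.62 CPM in hypoxia, 0.425 and 0.866 CPM in normoxia and 0.307 and 1.09 CPM in freshly laid embryos, from 75, 81 and 68 counts per group. The groups overlapped, and none of the 3 comparisons passed the edgeR test (adjusted p = 0.782 for hypoxia against freshly laid, 0.601 for hypoxia against normoxia and 0.855 for normoxia against freshly laid). A change of moderate size in ALDH1A3 was not detectable, since the SE of its log2 fold changes was 0.60 or more. ALDH1A1, with more counts, had an SE of 0.76 to 0.80. The part of depth in the SE of ALDH1A3 was not tested.

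Levels of different genes are compared per kilobase of exon. On that scale the 3 ALDH1A genes summed to 11.7 ± 6.19 CPM per kb in hypoxia, 41.2 ± 13.2 in normoxia and 7.85 ± 3.78 in freshly laid embryos (SD, n = 5 each). ALDH1A2 made up 61.3 ± 16.5% of that sum in hypoxia, 55.1 ± 17.9% in normoxia and 74.7 ± 16.04% in freshly laid embryos. ALDH1A1 made up most of the rest, with 35.2 ± 18.9% in hypoxia, 44.3 ± 18.05% in normoxia and 21.8 ± 17.04% in freshly laid embryos, and ALDH1A3 a mean of 3.51%, 0.618% and 3.53% in the same groups. The sum was higher in every normoxia library than in any other library. The shares of ALDH1A1 and ALDH1A2 overlapped between all groups, and the small share of ALDH1A3 was lower in every normoxia library than in any freshly laid one.

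RDH10, which makes the retinaldehyde that the ALDH1A enzymes use, was as sharply separated as ALDH1A2. Its levels were 31.8, 31.4, 30.9, 25.1 and 35.7 CPM in hypoxia, 104, 83.2, 79.0, 87.8 and 80.0 CPM in normoxia and 23.7, 33.4, 20.1, 21.004 and 22.3 CPM in freshly laid embryos. All normoxia libraries were above all others. RDH10 rose 3.60-fold in normoxia against freshly laid embryos (log2 fold change 1.85 ± 0.16 SE, edgeR adjusted p = 7.79e-07). It was lower in hypoxia than in normoxia (log2 fold change -1.48 ± 0.16 SE, edgeR adjusted p = 8.71e-07). Hypoxia against freshly laid embryos gave 0.36 ± 0.15 (SE, edgeR adjusted p = 0.0687), which passed the test without hypoxia replicate 4 (edgeR adjusted p = 0.0378) or without freshly laid replicate 2 (edgeR adjusted p = 0.0103).

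DHRS3, which turns retinaldehyde back to retinol and is raised by retinoic acid in several vertebrates, did not follow that pattern. It was at 110.1, 123, 68.0, 53.3 and 92.6 CPM in hypoxia, 60.6, 115, 91.2, 62.3 and 65.9 CPM in normoxia and 52.4, 49.3, 24.6, 28.7 and 45.9 CPM in freshly laid embryos. All 10 libraries of 36 h were above the 5 freshly laid libraries, by a narrow margin over the highest of them, and the 36 h groups overlapped. DHRS3 rose 2.23-fold in hypoxia (log2 fold change 1.15 ± 0.26 SE, edgeR adjusted p = 0.00222) and 1.97-fold in normoxia (log2 fold change 0.98 ± 0.26 SE, edgeR adjusted p = 0.00978), both against freshly laid embryos. Hypoxia against normoxia gave a log2 fold change of 0.18 ± 0.26 (SE, edgeR adjusted p = 0.594).

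Transcript levels of the opposing enzymes were set against each other per kilobase within each library. Such ratios of RNA do not measure enzyme activity. RDH10 over DHRS3 was 0.263 to 0.485 in hypoxia, 0.744 to 1.76 in normoxia and 0.4664 to 0.843 in freshly laid embryos. ALDH1A2 over DHRS3 was 0.103 to 0.499 in hypoxia, 0.638 to 1.65 in normoxia and 0.233 to 0.985 in freshly laid embryos. For both ratios the hypoxia libraries were all below the normoxia libraries, and the freshly laid libraries overlapped with both. No test was made of these ratios.

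Of 26 other genes of retinoid uptake, storage and oxidation, 18 were in the table and 15 were tested. In normoxia against freshly laid embryos 3 rose, none fell and 12 were not called by edgeR, with a median log2 fold change of 0.25 (all genes -0.00) and 15.2% of all genes called higher. In hypoxia against freshly laid embryos 5 rose and 3 fell (median 0.36, all genes 0.03), where 20.9% of all genes were higher and 19.4% lower. The 3 that fell became 1 without hypoxia replicate 5 or without freshly laid replicate 2. In hypoxia against normoxia 3 were higher and 4 lower (median -0.13, all genes 0.06), where 25.7% of all genes were higher and 23.2% lower. The counts of that comparison are near these shares. With total counts alone the hypoxia counts became 2 higher and 5 lower against freshly laid embryos, and 1 higher and 5 lower against normoxia. STRA6, the membrane receptor that takes up retinol, averaged 2.49 ± 1.62 CPM in hypoxia, 9.36 ± 3.31 in normoxia and 7.89 ± 2.91 in freshly laid embryos (SD, n = 5 each). It fell in hypoxia against freshly laid embryos (log2 fold change -1.66, edgeR adjusted p = 0.00451) and was lower than in normoxia (-1.91, edgeR adjusted p = 0.00123), while normoxia against freshly laid embryos gave 0.25 (edgeR adjusted p = 0.670).

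The binding proteins carry retinol and retinoic acid between and within cells. RBP4, the carrier of retinol in plasma and a product of liver and yolk sac, rose against freshly laid embryos in hypoxia (3.11, edgeR adjusted p = 0.00188) and in normoxia (2.66, edgeR adjusted p = 0.00749). The hypoxia value of RBP4 was 2.02 without hypoxia replicate 3, the hypoxia library with the highest yolk marker sum, and its normoxia call was lost with limma-voom (adjusted p = 0.0532).

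CRABP1, which binds retinoic acid in the cytoplasm, averaged 7.21 ± 5.08 CPM in hypoxia, 9.28 ± 3.86 in normoxia and 2.49 ± 1.45 in freshly laid embryos (SD, n = 5 each). It rose in normoxia (1.89, edgeR adjusted p = 0.0119) and in hypoxia (1.53, edgeR adjusted p = 0.0271) against freshly laid embryos. The normoxia call was lost with normoxia libraries of neighbouring sample numbers summed (1.74, edgeR adjusted p = 0.0585). The hypoxia call was lost without hypoxia replicate 3 or 5 or freshly laid replicate 1 or 2 (edgeR adjusted p 0.0502 to 0.104). It was also lost with total counts alone (edgeR adjusted p = 0.0642) and with limma-voom (adjusted p = 0.0840). CRABP2, which delivers retinoic acid to RAR, passed no comparison, with 21.7 CPM in hypoxia, 22.7 CPM in normoxia and 24.8 CPM in freshly laid embryos. BCO2, which cleaves carotenoids, averaged 24.1 CPM in hypoxia, 12.4 CPM in normoxia and 11.6 CPM in freshly laid embryos, and was higher in hypoxia than in either other group (1.05 on the log2 scale against freshly laid and 0.95 against normoxia, edgeR adjusted p = 0.000911 and 0.00133). RETSAT, retinol saturase, likewise rose in hypoxia (12.7 CPM, against 6.89 CPM in normoxia and 7.43 CPM in freshly laid embryos), with edgeR adjusted p = 0.00574 against normoxia and 0.0163 against freshly laid (0.0647 and 0.128 with total counts alone). SDR16C5, a retinol dehydrogenase, was lower in hypoxia than in normoxia (0.467 against 2.56 CPM, log2 fold change -2.43, edgeR adjusted p = 0.00354). The hypoxia level rests on 39 counts. Freshly laid embryos averaged 1.59 CPM, and hypoxia was lower than these too (-1.75, edgeR adjusted p = 0.0306). The latter call was lost in a fit to both groups alone (edgeR adjusted p = 0.0595). It was also lost without hypoxia replicate 1 or 5 or freshly laid replicate 2 (edgeR adjusted p 0.0564 to 0.0941). DGAT1, an acyltransferase that can esterify retinol, averaged 131 CPM in hypoxia, 135 CPM in normoxia and 182 CPM in freshly laid embryos. It was lower in hypoxia than in freshly laid embryos (log2 fold change -0.47, edgeR adjusted p = 0.0380), and that call was lost in a fit to both groups alone (0.0815) and when hypoxia replicate 2, 4 or 5 or freshly laid replicate 1, 2, 4 or 5 was left out (edgeR adjusted p 0.0664 to 0.0937). DGAT1 gave -0.43 in normoxia against freshly laid embryos (edgeR adjusted p = 0.0709, 0.0396 in a fit to both groups alone and 0.0120 without freshly laid replicate 3).

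Among the receptors, RARG separated the normoxia embryos from both other groups. Its levels were 78.8, 219, 108, 109 and 162 CPM in hypoxia, 41.0, 30.2, 37.5, 68.5 and 47.2 CPM in normoxia and 84.7, 123, 123, 163 and 157 CPM in freshly laid embryos. All 5 normoxia libraries were below all 10 others. RARG fell 2.90-fold in normoxia against freshly laid embryos (log2 fold change -1.54 ± 0.27 SE, edgeR adjusted p = 0.000517). In hypoxia it was 3.02-fold higher than in normoxia (log2 fold change 1.59 ± 0.27 SE, edgeR adjusted p = 0.000122). Hypoxia against freshly laid embryos gave 0.06 ± 0.26 (SE, edgeR adjusted p = 0.884), and its sign turned under several settings.

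Surface ectoderm markers, set beside RARG, were split. The 10 surface ectoderm markers, all in the table, summed to 2892 to 5200 CPM in hypoxia, 914 to 1415 CPM in normoxia and 1065 to 2061 CPM in freshly laid embryos. Most of the hypoxia sum was the keratins KRT8 (1472 CPM in hypoxia, 236 CPM in normoxia and 551 CPM in freshly laid embryos) and KRT18 (2147, 386 and 547 CPM in the same groups). Without them, left out after their values were seen, the other 8 markers overlapped between all groups, at 428 to 812 CPM in hypoxia, 456 to 649 CPM in normoxia and 376 to 686 CPM in freshly laid embryos. By edgeR 4 of the 10 were higher and 2 lower in normoxia than in freshly laid embryos, where RARG fell (all genes: 15.2% higher and 16.1% lower). In hypoxia against freshly laid embryos, where RARG did not pass the test, 5 were higher and none lower (all genes: 20.9% higher and 19.4% lower). In hypoxia against normoxia 5 were higher and 3 lower (all genes: 25.7% higher and 23.2% lower). The epidermal factor TP63 was among the lower ones, with 3.41 CPM in hypoxia, 20.95 CPM in normoxia and 0.795 CPM in freshly laid embryos. The sum of the epiblast markers given above, most of it DNMT3B, was highest in freshly laid embryos and overlapped between the 36 h groups. Of the 6 epiblast markers tested by edgeR, 3 were higher and none lower in hypoxia than in normoxia (25.7% of all genes were higher there). No marker of these lists that is in the table was at 0 in all libraries of a group. Their part in the RARG result was not tested.

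RARA was higher after 36 h in either atmosphere. It was at 142, 106, 155, 100.3 and 67.3 CPM in hypoxia, 50.5, 105, 84.5, 76.0 and 79.5 CPM in normoxia and 20.8, 38.1, 44.8, 54.2 and 62.7 CPM in freshly laid embryos. Every hypoxia library was above every freshly laid library, while normoxia overlapped with both. RARA rose 2.58-fold in hypoxia against freshly laid embryos (log2 fold change 1.37 ± 0.27 SE, edgeR adjusted p = 0.000772). Normoxia against freshly laid embryos gave 0.84 ± 0.27 (SE, edgeR adjusted p = 0.0254), and that call was lost without normoxia replicate 2 or 3 or freshly laid replicate 1 or 2 (edgeR adjusted p 0.05001 to 0.0697), and with normoxia libraries of neighbouring sample numbers summed (0.75, edgeR adjusted p = 0.115). Hypoxia against normoxia gave 0.53 ± 0.27 (SE, edgeR adjusted p = 0.114), which passed the test without hypoxia replicate 5 (edgeR adjusted p = 0.0467).

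RARB, whose own promoter is a well-known target of retinoic acid in mammals, was the scarcest of the RAR receptors. It was at 4.98, 12.9, 10.2, 7.87 and 12.7 CPM in hypoxia, 4.92, 6.42, 5.12, 3.19 and 5.48 CPM in normoxia and 15.7, 6.96, 10.1, 5.16 and 6.70 CPM in freshly laid embryos. The 3 groups overlapped, with normoxia at the low end. RARB was 1.93-fold higher in hypoxia than in normoxia (log2 fold change 0.95 ± 0.33 SE, edgeR adjusted p = 0.0256), and the call was lost with total counts alone (0.62, edgeR adjusted p = 0.137) and without hypoxia replicate 2 or 5 or normoxia replicate 4 (edgeR adjusted p 0.0612 to 0.0668). Normoxia against freshly laid embryos gave -0.82 ± 0.33 (SE, edgeR adjusted p = 0.0687), called without freshly laid replicate 4 (edgeR adjusted p = 0.0443). Hypoxia against freshly laid embryos gave 0.13 ± 0.33 (SE, edgeR adjusted p = 0.788).

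The make-up of the receptor pool followed from these values. Per kilobase of exon, RARA, RARB and RARG summed to 61.6 ± 10.3 CPM per kb in hypoxia, 33.0 ± 5.42 in normoxia and 40.2 ± 9.09 in freshly laid embryos (SD, n = 5 each). RARG made up 40.8 ± 13.8% of the sum in hypoxia, 26.0 ± 8.35% in normoxia and 60.3 ± 2.79% in freshly laid embryos. RARA made up 53.6 ± 15.4% in hypoxia, 68.5 ± 7.97% in normoxia and 30.7 ± 5.42% in freshly laid embryos. Every freshly laid library held more RARG than RARA, every normoxia library more RARA than RARG, and the hypoxia libraries split, with replicates 2 and 5 on the RARG side. The ratio of RARA to RARG ran from 0.642 to 2.78 in hypoxia, from 1.71 to 5.35 in normoxia and from 0.378 to 0.615 in freshly laid embryos. All hypoxia and all normoxia ratios were above all freshly laid ratios. RARB took a mean of 5.65% in hypoxia, 5.56% in normoxia and 9.003% in freshly laid embryos, where replicate 1 alone reached 20.4%.

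**Figure D3:**
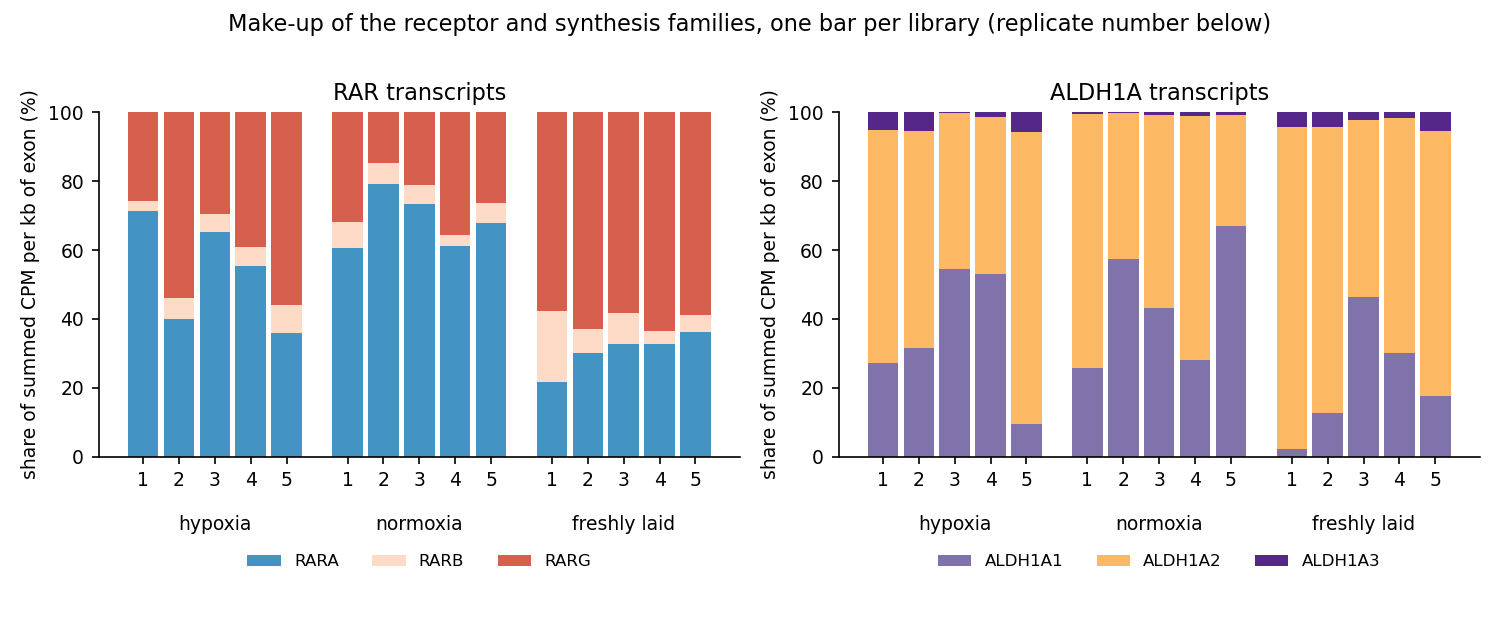
Share of each gene in the summed level per kilobase of exon (vertical axis, percent), 1 bar per library, for the RAR receptors (left) and the ALDH1A enzymes (right). RARG holds the greater share of the RAR sum in all 5 freshly laid libraries and RARA in all 5 normoxia libraries, while ALDH1A2 and ALDH1A1 vary within each group.

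Most of the RXR receptors, with which RAR pairs on DNA, and of the coregulators were higher in hypoxia than in normoxia. Of 12 genes on that list 11 were in the table and tested. In normoxia against freshly laid embryos none was higher and 5 fell (median log2 fold change -0.42), where 16.1% of all genes were lower. In hypoxia 8 rose and none fell against freshly laid embryos (median 0.52, with 20.9% of all genes higher), and 10 were higher and none lower than in normoxia (median 0.83, with 25.7% of all genes higher), all by edgeR. DESeq2 and limma-voom gave the same counts. With total counts alone these hypoxia counts became 2 higher and 1 lower against freshly laid embryos, and 6 higher and none lower against normoxia. Then RXRB (log2 fold change 0.45), NCOR1 (0.09), EP300 (0.23) and NCOA3 (0.35) were not called against freshly laid embryos (edgeR adjusted p = 0.0567, 0.554, 0.298 and 0.105). The rise of the list against freshly laid embryos thus depends on the scaling of the hypoxia libraries.

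EP300, a histone acetyltransferase and coactivator, averaged 107 ± 16.6 CPM in hypoxia, 34.9 ± 7.28 in normoxia and 73.1 ± 10.7 in freshly laid embryos (SD, n = 5 each). It fell in normoxia against freshly laid embryos (log2 fold change -1.07, edgeR adjusted p = 0.000156) and was higher in hypoxia than in normoxia (1.61, edgeR adjusted p = 5.99e-07). The corepressor NCOR1 moved alike, with 194 ± 18.9 CPM in hypoxia, 84.1 ± 7.08 in normoxia and 146 ± 11.8 in freshly laid embryos (1.21 for hypoxia against normoxia, edgeR adjusted p = 2.69e-07). The coactivator NCOA3 had 62.4 CPM in hypoxia, 23.4 CPM in normoxia and 39.4 CPM in freshly laid embryos, and passed all 3 comparisons. NCOA1, another coactivator, had 46.2 CPM in hypoxia, 21.8 CPM in normoxia and 25.1 CPM in freshly laid embryos, and passed both hypoxia comparisons. In hypoxia against normoxia, with TMM scaling, both kinds of coregulator were called higher, the coactivators EP300, NCOA1 and NCOA3 as well as the corepressor NCOR1.

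RXRB was the leading RXR, with 85.5 ± 5.90% of the RXR sum per kilobase in hypoxia, 89.5 ± 3.11% in normoxia and 87.2 ± 4.47% in freshly laid embryos (SD, n = 5 each). It averaged 121 CPM in hypoxia, 67.9 CPM in normoxia and 71.6 CPM in freshly laid embryos, and rose in hypoxia against freshly laid embryos (log2 fold change 0.76, edgeR adjusted p = 0.00482). RXRA had 33.3 ± 0.878 CPM in hypoxia, 20.2 ± 2.73 in normoxia and 24.7 ± 4.80 in freshly laid embryos (SD, n = 5 each). RXRA was higher in hypoxia than in normoxia (0.72, edgeR adjusted p = 0.00102; 0.40 and 0.0529 with total counts alone). Its rise against freshly laid embryos (0.43, edgeR adjusted p = 0.0353) was lost when any hypoxia library, or freshly laid replicate 2, 4 or 5, was left out (edgeR adjusted p 0.0507 to 0.0995). Normoxia against freshly laid embryos gave -0.29 for RXRA (edgeR adjusted p = 0.164).

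Of 22 genes known to respond to retinoic acid in other vertebrates, all were in the table and 17 were tested. In normoxia against freshly laid embryos 11 rose and none fell by edgeR, with a median log2 fold change of 1.6002, where 15.2% of all genes were called higher. In hypoxia against freshly laid embryos 10 rose and none fell, with a median of 1.6007, where 20.9% were called higher. In hypoxia against normoxia 1 was higher and 2 were lower (median -0.19), where 25.7% of all genes were called higher and 23.2% lower. The higher count became 0 without hypoxia replicate 1 or normoxia replicate 3, 4 or 5, and the lower count 1 without hypoxia replicate 1, 2 or 5 or normoxia replicate 2, 3 or 5. DESeq2 gave 2 higher and 4 lower, limma-voom 3 and 5, and total counts alone 0 and 5. These genes also respond to other signals and mark tissues that form in this period, so their count is a description. Neural markers, for example, of which 13 of 13 were in the table, summed to 31.8 to 55.4 CPM in hypoxia, 46.6 to 79.6 CPM in normoxia and 11.1 to 25.6 CPM in freshly laid embryos. ZIC1, NKX2-2 and EN1 were at 0 in all freshly laid libraries. The largest part of the sum at 36 h was IRX3, with 20.5 CPM in hypoxia, 16.5 CPM in normoxia and 3.33 CPM in freshly laid embryos. Of the 9 tested by edgeR, 6 rose in normoxia and 7 in hypoxia against freshly laid embryos, and none fell. In hypoxia against normoxia none was higher and 6 were lower (23.2% of all genes were lower). PAX6 is on both lists. The part of the neural markers in the counts of responsive genes was not tested.

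MEIS1, a homeobox partner of HOX proteins, was highest in normoxia and also rose in hypoxia. It averaged 25.2 ± 3.33 CPM in hypoxia, 60.6 ± 16.3 in normoxia and 7.51 ± 3.44 in freshly laid embryos (SD, n = 5 each). Against freshly laid embryos MEIS1 rose by 3.01 on the log2 scale in normoxia (edgeR adjusted p = 3.51e-06) and by 1.75 in hypoxia (edgeR adjusted p = 0.000117), and hypoxia was lower than normoxia (-1.26, edgeR adjusted p = 0.000993). Its paralogue MEIS2 averaged 12.1 CPM in hypoxia, 20.6 CPM in normoxia and 1.36 CPM in freshly laid embryos, and rose in both 36 h groups (3.14 in hypoxia and 3.91 in normoxia, edgeR adjusted p = 1.16e-05 and 5.65e-06). For MEIS2, hypoxia against normoxia gave -0.77 (edgeR adjusted p = 0.0809), called by DESeq2 and limma-voom (adjusted p = 0.0412 and 0.0271) and with total counts alone (edgeR adjusted p = 0.0183).

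Several other responsive genes rose in both atmospheres. ZNF703, a zinc finger repressor, had 50.1 CPM in hypoxia, 56.8 CPM in normoxia and 19.4 CPM in freshly laid embryos. The orphan nuclear receptor NR2F2 had 4.60 CPM in hypoxia, 5.56 CPM in normoxia and 0.978 CPM in freshly laid embryos. Its paralogue NR2F1 had 3.07 CPM in hypoxia, 1.10 CPM in normoxia and 0.104 CPM in freshly laid embryos, the last from 10 counts. All 3 passed the edgeR test in both 36 h groups against freshly laid embryos and none passed it between the 36 h groups (adjusted p = 0.520, 0.574 and 0.0685). NR2F1 was called higher in hypoxia than in normoxia by DESeq2 and limma-voom (adjusted p = 0.0391 and 0.0181) and by edgeR without hypoxia replicate 3 or normoxia replicate 1 (adjusted p = 0.0485 and 0.0499).

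HOXB1, a HOX gene of the hindbrain and a textbook target of retinoic acid, averaged 2.45 CPM in hypoxia, 7.55 CPM in normoxia and 1.599 CPM in freshly laid embryos. It rose in normoxia against freshly laid embryos (log2 fold change 2.23, edgeR adjusted p = 0.0198). That call was lost with normoxia libraries of neighbouring sample numbers summed (2.22, edgeR adjusted p = 0.0677). All hypoxia libraries of HOXB1 were below all normoxia libraries, but that comparison did not pass the test (-1.62, edgeR adjusted p = 0.0521). It did pass with DESeq2 and limma-voom (adjusted p = 0.0180 and 0.0176) and by edgeR with total counts alone and with RLE scaling (adjusted p = 0.0224 and 0.0490). CDX1, a caudal homeobox gene, averaged 8.999 CPM in hypoxia, 3.67 CPM in normoxia and 2.96 CPM in freshly laid embryos. It rose in hypoxia against freshly laid embryos (1.601, edgeR adjusted p = 0.0145, and 0.0650 without hypoxia replicate 3), and its difference from normoxia (1.29, edgeR adjusted p = 0.0340) was lost with total counts alone (0.98, edgeR adjusted p = 0.106) and when hypoxia replicate 1 or 3 or normoxia replicate 1, 3, 4 or 5 was left out (edgeR adjusted p 0.0553 to 0.157).

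TSHZ3, a zinc finger factor, averaged 0.585 CPM in hypoxia, 2.42 CPM in normoxia and 0.149 CPM in freshly laid embryos. It was lower in hypoxia than in normoxia (log2 fold change -2.04, edgeR adjusted p = 0.0446), and that call was lost when hypoxia replicate 1, 2, 3 or 5 or normoxia replicate 2, 3, 4 or 5 was left out (edgeR adjusted p 0.0501 to 0.101). FGF8, a growth factor of the primitive streak and tail bud whose transcription retinoic acid limits in mouse embryos, had the same order of means as RARG. It averaged 6.20 ± 2.17 CPM in hypoxia, 0.887 ± 0.376 in normoxia and 5.97 ± 4.37 in freshly laid embryos (SD, n = 5 each). Unlike RARG, its freshly laid libraries ran from 0.0628 CPM (1 count) to 9.51 CPM, the lowest being below every normoxia library (0.477 CPM or more). Hypoxia against freshly laid embryos gave 0.05 for FGF8 (edgeR adjusted p = 0.957). FGF8 was higher in hypoxia than in normoxia (2.79, edgeR adjusted p = 0.00336) and fell in normoxia against freshly laid embryos (-2.74, edgeR adjusted p = 0.00739, and not called by limma-voom, adjusted p = 0.198).

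**Figure D4:**
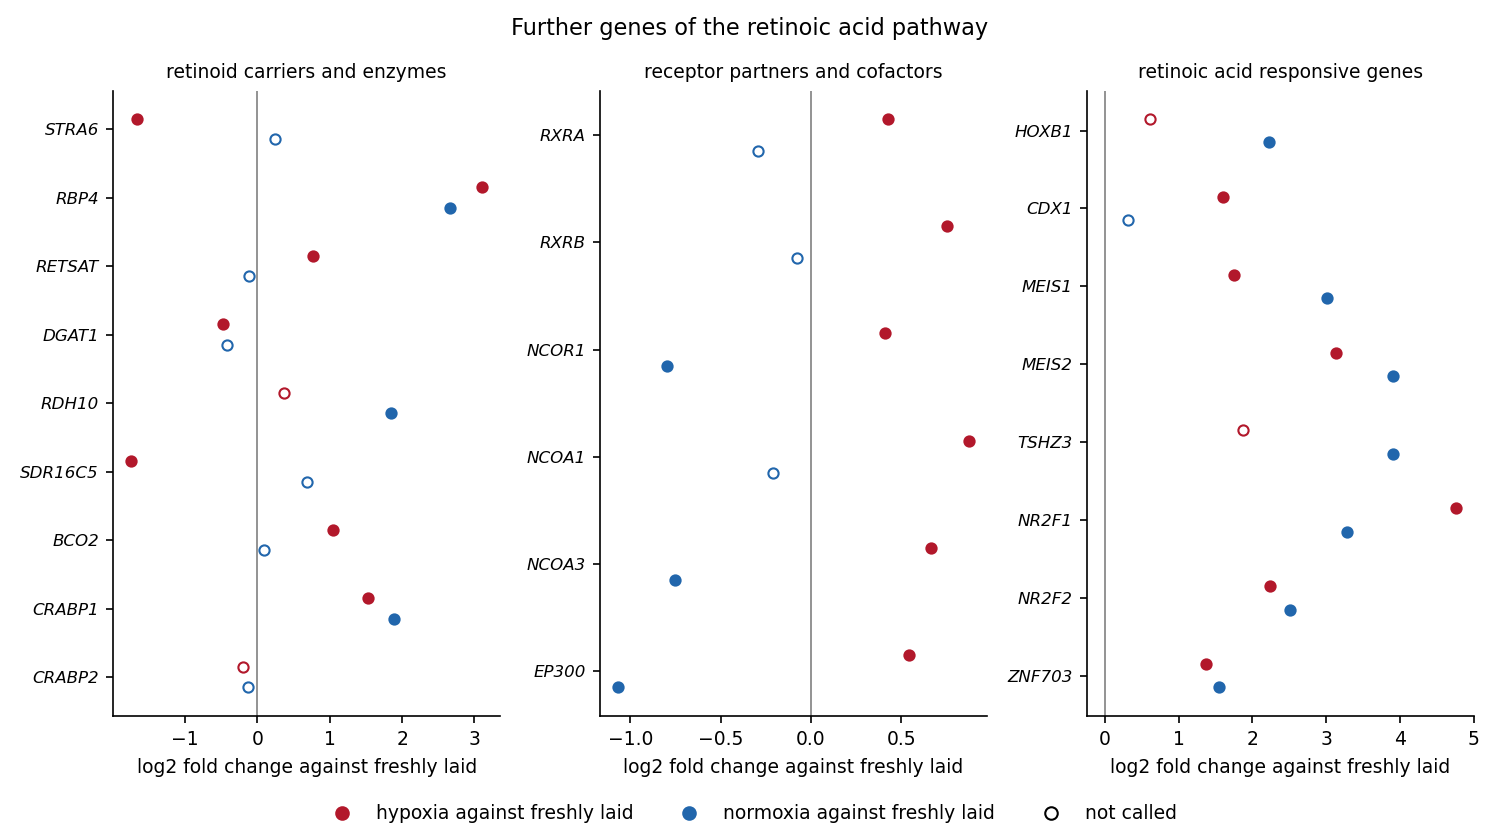
Log2 fold change against freshly laid embryos (horizontal axis) of the tested genes named here from the lists of retinoid supply (left), receptor partners and cofactors (middle) and retinoic acid responsive genes (right), for hypoxia (red) and normoxia (blue), filled where the edgeR adjusted p is under 0.05. RDH10 lies at 1.85 in normoxia and 0.36 in hypoxia, the cofactors lie to the right in hypoxia and to the left in normoxia, and the responsive genes shown, most of them picked by their adjusted p, lie to the right in both.

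Set side by side, the 7 genes fell into 3 patterns over the shared libraries. ALDH1A1, ALDH1A2 and RARG passed the test against freshly laid embryos in normoxia and not in hypoxia, the enzymes higher and the receptor lower, with ALDH1A1 in hypoxia depending on freshly laid replicate 3. RARA and DHRS3 rose in both 36 h groups, with the call of RARA in normoxia depending on single libraries. ALDH1A3 and RARB passed neither comparison with freshly laid embryos. The direct tests between the 36 h groups gave differences for ALDH1A2, RARG, ALDH1A1 and RARB, and did not pass for RARA, DHRS3 or ALDH1A3. The calls of ALDH1A1 and RARB depended on single libraries. Both were also lost with normoxia libraries of neighbouring sample numbers summed (edgeR adjusted p = 0.0906 and 0.0688). Genes without overlap between groups were 4 of 7 in normoxia against freshly laid embryos and 2 of 7 in hypoxia against normoxia. The shares of all tested genes there, in either direction, were 23.5% and 36.3%. In hypoxia against freshly laid embryos 2 of 7 had no overlap, both all higher. The share given for that comparison, 12.2% of all genes, counts only genes that were all higher. It leaves out genes that were all lower and cannot be set beside the other shares.

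**Figure D5:**
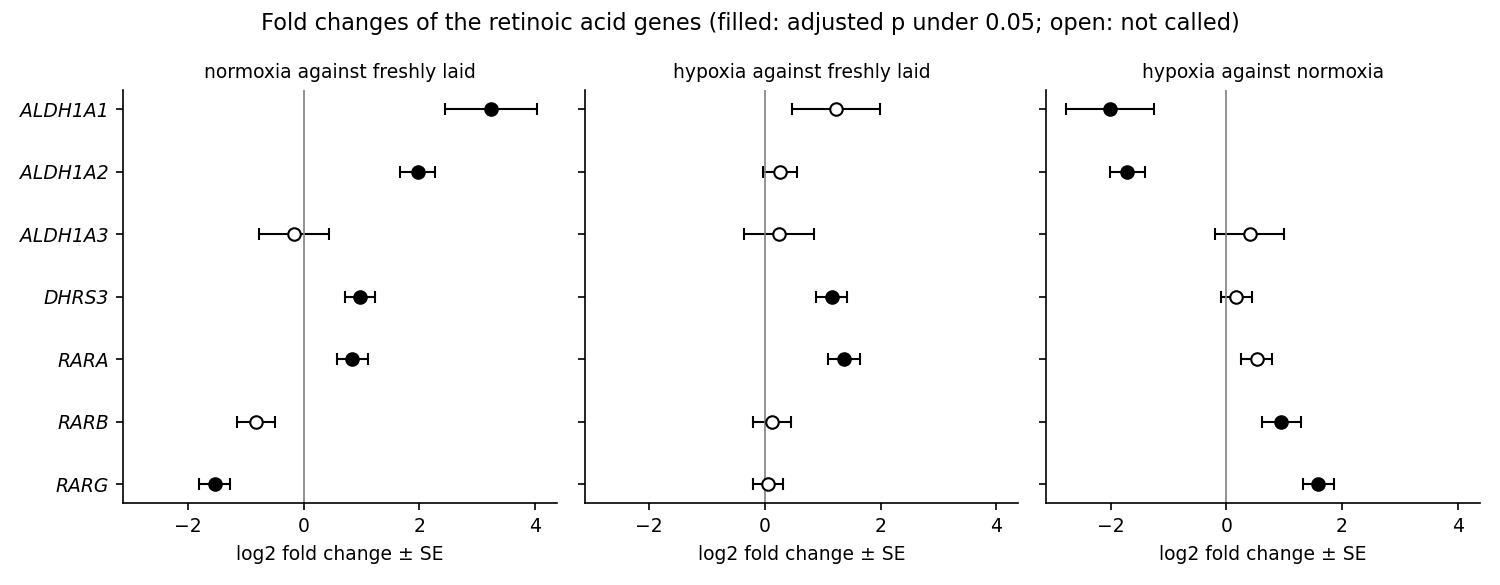
Log2 fold change ± SE (horizontal axis) of the 7 genes in the 3 comparisons, from edgeR, filled where the adjusted p is under 0.05. ALDH1A2 lies at 1.97 in normoxia against freshly laid embryos, 0.26 in hypoxia against freshly laid embryos and -1.71 in hypoxia against normoxia, and RARG at -1.54, 0.06 and 1.59.

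Each library's column name in the file carries a number after the letter S. Those of hypoxia replicate 1, normoxia replicates 1, 3 and 5 and freshly laid replicate 1 are from 12 up. What the numbers stand for is not given in the sources used here. With this split as a covariate, each of the 7 genes kept its call or lack of one in all 3 comparisons. Among the 10 libraries with numbers up to 11 (4 hypoxia, 2 normoxia and 4 freshly laid), normoxia against freshly laid embryos gave 1.98 for ALDH1A2 and -1.52 for RARG on the log2 scale (edgeR adjusted p = 0.0153 and 0.0300). There ALDH1A1 gave 3.05 (edgeR adjusted p = 0.0753), DHRS3 1.26 (0.0538) and RARA 0.86 (0.0913). Hypoxia against normoxia gave -1.72 for ALDH1A2 and 1.59 for RARG (edgeR adjusted p = 0.00927 and 0.00859), -2.001 for ALDH1A1 (0.144) and 1.18 for RARB (0.0552). Hypoxia against freshly laid embryos gave 1.10 for RARA and 1.18 for DHRS3 (edgeR adjusted p = 0.00775 and 0.0156). In the same 10 libraries 17301 genes were tested. Of these, 3.64% were called higher and 4.53% lower in normoxia against freshly laid embryos, 14.7% and 13.1% in hypoxia against freshly laid embryos, and 14.2% and 13.5% in hypoxia against normoxia. The genes of retinoid supply called higher and lower were 1 and 0 in normoxia against freshly laid embryos, 3 and 1 in hypoxia against freshly laid embryos and 0 and 2 in hypoxia against normoxia. For the receptor partners these counts were 0 and 3, 6 and 0, and 6 and 0. For the responsive genes, of which 18 were then tested, they were 4 and 0, 9 and 0, and 0 and 1. The libraries with numbers from 12 up hold 1 hypoxia and 1 freshly laid library, too few for values of their own.

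Genes whose log2 CPM ran most like each of the 7 over the 15 libraries were listed as a description. These correlations rest on libraries that share the group differences. CXCR4, a chemokine receptor, was nearest to ALDH1A1 (Pearson r = 0.965), followed by MOSPD1 (0.945) and SULF1 (0.935). FHDC1 (0.930), TMPRSS13 (0.924) and ZNF750 (0.916) were nearest to ALDH1A2. SKAP1 (0.956), NKAIN1 (0.936) and SCNN1A, a subunit of the epithelial sodium channel (0.932), were nearest to RARG. SCNN1A averaged 80.1 CPM in hypoxia, 9.87 CPM in normoxia and 55.1 CPM in freshly laid embryos. PARD6A (0.960), SSR4 (0.951) and CUTA (0.942) were nearest to RARA, and CDC40 (0.901), GRAMD2B (0.894) and CGNL1 (0.888) to RARB. TARS1 (0.873), SLC30A4 (0.869) and POLR1F (0.864) were nearest to DHRS3, and IBTK (0.838), PTPN2 (0.833) and FAS (0.805) to ALDH1A3, whose low counts limit what its correlations can show. Among the 7 genes themselves, ALDH1A2 and RARG ran most strongly against each other (r = -0.906 over the 15 libraries and -0.628 after the group means were removed), and ALDH1A1 and ALDH1A2 ran together chiefly through the group means (0.708 before and 0.203 after).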

How the data were processed

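RNA was measured in 15 embryo libraries, grouped by the labels into hypoxia, normoxia and freshly laid (n = 5 each). The deposited table holds raw counts of reads on exons, by gene. The submitters' processing notes name STAR, featureCounts and limma. The counting used featureCounts 1.6.2 with strand setting 2, a mapping quality of at least 10 and marked duplicates still counted, per the file headers. Exon lengths come from the same table. Of its count columns, 3 match no sample and were not used. One entry without a gene name, 0.0553 to 0.334% of the counts, was left out.

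The count analysis used edgeR 4.0.16 in R 4.3.3: filterByExpr, TMM scaling and 1 quasi-likelihood fit to all libraries (12 residual degrees of freedom, common biological coefficient of variation 0.367). P-values were adjusted by Benjamini and Hochberg over all tested genes and called under 0.05. The SE was taken as the log2 fold change over the square root of F. No pair of replicates agreed within sampling noise (chi-square per degree of freedom 29.3 to 148). The steps were tested on simulated counts. Depth was 14496102 to 26805841 counts per library.

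The 10 genes and the lists of pathway genes and tissue markers were chosen with earlier results of these data known. From each list, the genes ranking in the top 4 by adjusted p in a comparison are named, plus RXRA, RDH10, CRABP1, CRABP2, STRA6, HOXB1, CDX1 and FGF8. Some genes that this rule names are not reported here. The 3 most correlated genes with a symbol are named for each of the 7. DESeq2 1.42.0 and limma-voom (limma 3.58.1) were among the alternatives.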

Additional observations from a re-analysis of the deposited data

Results flagged for a closer look

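ALDH1A1 in freshly laid replicate 3 was far above the other freshly laid libraries, at 13.6 CPM against 0.314 to 3.78 CPM. The gap to the nearest library, taken over the range of the group, exceeded the critical value of Dixon's test for 5 libraries. In all, 21 sets of 1 gene in 1 group were examined, and 1 was flagged. For normally distributed values chance gives such a gap in about 1 in 20 sets, so 1 flag is near what chance gives. The gaps were taken on CPM, not on a log scale. The same library had the highest yolk and endoderm marker sum of its group, 42.2 CPM against 15.2 to 34.6 CPM in the others. It also had the highest oviduct marker sum of its group, at 2.78 CPM. The part of either in the ALDH1A1 value was not tested. Without it the log2 fold change of ALDH1A1 was 2.32 for hypoxia and 4.34 for normoxia, both against freshly laid embryos (edgeR adjusted p = 0.0203 and 0.00101).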

How the results depend on the processing

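ALDH1A2 and RARG kept their calls and directions in normoxia against freshly laid embryos and in hypoxia against normoxia under every alternative run: median-ratio and total-count scaling, no filter or 10 counts in 5 libraries, DESeq2, limma-voom, a fit to both groups alone, and leaving out each library. So did RARA and DHRS3 in hypoxia against freshly laid embryos. Leaving out 1 library gave 4 to 6 of the 7 genes called in normoxia against freshly laid embryos, 2 to 3 in hypoxia against freshly laid and 2 to 4 in hypoxia against normoxia (2 without hypoxia replicate 2). RARB in normoxia against freshly laid embryos was called by DESeq2 (adjusted p = 0.0458).

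Total-count scaling moved the called genes of hypoxia against freshly laid embryos to 2088 higher and 5259 lower (3474 and 3227 with TMM), and of hypoxia against normoxia to 2674 higher and 5600 lower (4268 and 3855). It also turned signs of uncalled values: ALDH1A2 -0.056, ALDH1A3 -0.10, RARB -0.19 and RARG -0.26 in hypoxia against freshly laid embryos, and DHRS3 -0.16 in hypoxia against normoxia. With limma-voom ALDH1A3 gave -0.16 in hypoxia against freshly laid embryos and -0.083 in hypoxia against normoxia, and RARG -0.0021 in hypoxia against freshly laid. In that comparison leaving out 1 library gave -0.085 to 0.54 for ALDH1A3 (lowest without hypoxia replicate 1), -0.020 to 0.43 for RARB (lowest without freshly laid replicate 4) and -0.19 to 0.20 for RARG, below 0 without hypoxia replicate 2 or 5 or freshly laid replicate 1. The causes were not tested.

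Chosen after seeing the data were 3 alternatives. With S numbers up to 11 only, fewer samples remain. Then 2 of the 7 genes were called in normoxia against freshly laid embryos and 2 in hypoxia against normoxia. Over all genes, 1413 and 4789 were called. There ALDH1A3 gave -0.062 in hypoxia against freshly laid embryos and DHRS3 -0.079 in hypoxia against normoxia. With normoxia libraries of neighbouring sample numbers (133 and 135, 233 and 235) summed, 2987 genes were called in normoxia against freshly laid embryos, and 2 of the 7 in hypoxia against normoxia. The split by S number as a covariate changed no call among the 7. No paired analysis was possible because the labels give no replicate numbers shared between groups. ALDH1A3 rests on few counts, 1 to 28 per library.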
